A study of Sus scrofa with 11 samples.

Results

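Genes of excitation-contraction coupling and calcium handling were described in the *M. semimembranosus* (SM), a hind limb muscle, of pigs fed at a low or a high level of protein. The list held 10 genes, RYR1, CACNA1S, CACNB1, CACNG1, CASQ1, ATP2A1, ATP2A2, SLN, PVALB and TRDN, and a probe set was taken where the annotation of the array gave 1 of these symbols alone. This found 4 of the 10 genes, among 6765 genes on the array with a symbol of their own, and they were read by 8 of the 23999 probe sets that were not controls. RYR1 and SLN had 1 probe set each, ATP2A1 had 2 and ATP2A2 had 4. CACNA1S, CACNB1, CACNG1, CASQ1, PVALB and TRDN had no such probe set and were not analysed here.

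The animals were Duroc gilts of about 10 weeks of age at the start, given isoenergetic diets *ad libitum* for 63 days. The high protein (HP) diet held 217 g/kg of crude protein and 13.0 g/kg of lysine, and the low protein (LP) diet held 128 g/kg of crude protein and 7 g/kg of lysine. RNA of the SM muscle was hybridised to Affymetrix Porcine Genome arrays, with 1 array for each of 6 HP and 5 LP pigs. Each level is on the log2 scale, so a difference of 1 is a doubling, and a level describes 1 probe set only, since probe sets differ in brightness at the same amount of RNA.

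In a skeletal muscle fibre the action potential runs into the transverse tubules, where the voltage sensor, a calcium channel of the CACNA1S type with its accessory subunits, opens the ryanodine receptor RYR1 in the facing membrane of the sarcoplasmic reticulum. The calcium released there binds troponin and starts contraction, and the calcium pumps of the SERCA family, ATP2A1 in fast fibres and ATP2A2 in slow fibres and heart, return it to the store. Sarcolipin, the product of SLN, is a small membrane protein that binds these pumps and lowers their uptake of calcium. The store itself is buffered by calsequestrin (CASQ1), which triadin (TRDN) ties to the release channel, and parvalbumin (PVALB) buffers calcium in the cytosol of fast fibres. In pigs RYR1 is also known as the gene of the porcine stress syndrome, which affects meat quality, and the genotype of these animals at it was not given in the labels.

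The 4 genes were expressed in the SM muscle of every pig, and no difference between the diets in any of their 8 probe sets passed the threshold of an unadjusted p of 0.05 in limma, an empirical Bayes linear model fitted across all probe sets. On each of the 11 arrays all 8 lay above background, taken as the brightest of 23 probe sets that serve as negative controls. Between 74.9% and 85.3% of all probe sets lay above it on an array, so passing it was common. The brightest probe sets of RYR1, ATP2A1, ATP2A2 and SLN had LP means between 0.14 and 0.31 below their HP means on the log2 scale, each less than its spread among HP pigs. The largest difference was in the opposite direction, in a dimmer probe set of ATP2A2 whose LP mean was 0.70 above its HP mean. Across the array, 1227 of 23999 probe sets (5.11%) were called at this threshold, 2.15% with higher and 2.97% with lower levels in LP, and 0 at a Benjamini-Hochberg adjusted p under 0.05. The 8 probe sets had adjusted p between 0.968 and 0.995 in limma, and an exact permutation test over the 462 splits of the pigs into 6 and 5 also called 0 of 8, against 5.4% of all probe sets.

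Before the single genes are described, the brightness of the arrays has to be given, since it moved with several of them. All 11 arrays had the same median level (6.72), but the hybridisation spike-ins, transcripts of bacteria and a phage added in fixed amounts to each sample, ranged from 11.30 to 12.22 in HP and from 11.43 to 11.77 in LP. Their mean was 11.84 ± 0.40 (SD, n = 6) in HP and 11.58 ± 0.13 (SD, n = 5) in LP, a difference of -0.26 that an exact permutation test did not separate (p = 0.186). By these spike-ins HP replicates 1, 2 and 4 were the 3 brightest arrays, and HP replicate 3 was the dimmest. Bright and dim arrays are named by the spike-ins alone in what follows. The share of probe sets above background did not follow this order. It was highest on HP replicate 3 (85.3%) and lowest on HP replicate 4 (74.9%), with 80% and 78.7% on HP replicates 1 and 2. Among the 766 probe sets with a mean level of 12 or more, 93.2% had a lower mean in LP, with a median difference of -0.15, against 52.6% and -0.02 over all probe sets. After quantile normalization, which gives every array the same distribution of levels, the median of these bright probe sets was 0.00.

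RYR1, the calcium release channel of the sarcoplasmic reticulum, was read by the probe set Ssc.8.1.S1_at. Its levels in HP replicates 1 to 6 were 13.60, 13.83, 12.79, 13.82, 13.32 and 12.97, and in LP replicates 1 to 5 they were 13.02, 13.13, 13.21, 13.35 and 13.14. The HP pigs spanned a wide range, with replicates 1, 2 and 4 above every LP pig and replicates 3 and 6 below every LP pig, and all 5 LP pigs lay inside the HP range. The mean was 13.39 ± 0.44 (SD, n = 6) in HP and 13.17 ± 0.12 (SD, n = 5) in LP. The difference of LP minus HP was -0.22 with a standard error of 0.20 and a 95% confidence interval from -0.67 to 0.23 (limma p = 0.31, exact permutation p = 0.307). A level of RYR1 in LP as low as 0.63 times or as high as 1.17 times that in HP was thus within the interval.

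ATP2A1, the SERCA1 pump of fast fibres, was read by 2 probe sets. The brighter, Ssc.15030.1.S1_a_at, gave 13.16, 13.22, 12.42, 13.39, 12.91 and 12.56 in HP replicates 1 to 6 and 12.51, 12.76, 12.82, 12.95 and 12.97 in LP replicates 1 to 5. The order of the HP pigs resembled that of RYR1, with replicates 1, 2 and 4 above all LP pigs and replicate 3 lowest, and the LP pigs again lay inside the HP range. Its mean was 12.94 ± 0.39 (SD, n = 6) in HP and 12.80 ± 0.18 (SD, n = 5) in LP, a difference of -0.14 with an interval from -0.57 to 0.28 (limma p = 0.465, exact permutation p = 0.457). The dimmer, Ssc.15030.2.S1_at, gave 11.23, 11.01, 10.61, 11.52, 11.09 and 10.37 in HP and 10.65, 11.08, 11.23, 11.18 and 11.30 in LP. Here the LP mean was the higher, 11.09 ± 0.26 (SD, n = 5) against 10.97 ± 0.42 (SD, n = 6), with a difference of 0.11 and an interval from -0.35 to 0.58 (limma p = 0.601, exact permutation p = 0.615). The 2 probe sets of the gene thus differed in sign, and both intervals spanned 0.

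ATP2A2, the SERCA2 pump of slow fibres and heart, was read by 4 probe sets that did not move alike. The brightest, Ssc.22641.2.S1_a_at, gave 13.42, 13.32, 12.80, 13.65, 13.31 and 13.08 in HP and 12.78, 12.85, 12.98, 13.30 and 13.18 in LP. LP replicate 1 was marginally the lowest of all 11 pigs, the other LP pigs lay inside the HP range, and HP replicates 1, 2, 4 and 5 were above every LP pig. The means were 13.26 ± 0.29 (SD, n = 6) in HP and 13.02 ± 0.22 (SD, n = 5) in LP, and the difference was -0.24 with an interval from -0.61 to 0.12 (limma p = 0.17, exact permutation p = 0.16).

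The probe sets Ssc.29181.1.A1_s_at and Ssc.22641.1.S1_at of ATP2A2 followed another order of pigs. The former gave 9.29, 9.19, 9.66, 9.60, 9.25 and 9.44 in HP and 9.28, 9.03, 9.05, 9.38 and 9.44 in LP, with LP replicates 2 and 3 below all HP pigs. The latter gave 9.23, 8.84, 9.45, 9.41, 8.80 and 9.16 in HP and 9.27, 8.91, 8.93, 9.29 and 9.45 in LP, with the diets overlapping over nearly the whole range. Neither passed the threshold, with differences of -0.17 (interval -0.46 to 0.12, exact permutation p = 0.173) and 0.02 (interval -0.34 to 0.39, exact permutation p = 0.894). In both, HP replicate 3, the dimmest array by its spike-ins, had the highest level among the HP pigs, the reverse of its place in RYR1 and ATP2A1.

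The remaining ATP2A2 probe set, Ssc.22641.3.S1_at, came nearest to the threshold of the 8. It gave 8.29, 8.69, 7.58, 8.31, 7.20 and 7.26 in HP replicates 1 to 6 and 7.62, 8.86, 8.95, 8.53 and 8.99 in LP replicates 1 to 5. LP replicates 2, 3 and 5 lay above every HP pig, and LP replicate 1 lay among the lower HP pigs, so the diets overlapped. The mean was 7.89 ± 0.62 (SD, n = 6) in HP and 8.59 ± 0.57 (SD, n = 5) in LP, a difference of 0.70 with a standard error of 0.34 and an interval from -0.05 to 1.46 (limma p = 0.0646, exact permutation p = 0.0844). This is a level 1.63 times as high in LP, with an interval from 0.97 to 2.75 times. The call depended on the pigs and on the model. The probe set was called by limma when HP replicate 2 was left out (0.86), when LP replicate 1 was left out (0.95) and when the spike-in level was a covariate (1.03, interval 0.33 to 1.73). It passed the unadjusted threshold in 7 of 21 alternatives and was above 0 in 21 of 21, with values from 0.57 to 1.24. The alternatives share most of their arrays and are not independent. The 1.24, a call among these, came without HP replicates 1, 2 and 4, a choice made after seeing the data. Those pigs had the highest HP levels of this probe set, so leaving them out had to raise the difference. The 4 probe sets of this gene thus gave differences from -0.24 to 0.70, and which stretch of the transcript each of them reads was not given in the sources used here.

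SLN, the sarcolipin that inhibits the SERCA pumps, was read by Ssc.15893.1.S1_at. Its levels were 14.09, 14.05, 13.18, 14.16, 13.63 and 13.30 in HP replicates 1 to 6 and 13.22, 13.35, 13.41, 13.62 and 13.56 in LP replicates 1 to 5. HP replicates 1, 2, 4 and 5 were above every LP pig, and HP replicate 3 was below every LP pig. The mean was 13.74 ± 0.43 (SD, n = 6) in HP and 13.43 ± 0.16 (SD, n = 5) in LP, and HP was 1.24-fold over LP. The difference of -0.31 had a standard error of 0.20 and an interval from -0.75 to 0.14 (limma p = 0.162, exact permutation p = 0.162). With HP replicate 3 left out SLN was called by limma at -0.42, and so was the brightest ATP2A2 probe set at -0.34. Without that array the split of calls over all probe sets moved as well, with 65.9% of all called probe sets lower in LP against 58.0% with all 11 arrays. Groups that did not overlap at all were found in 0.579% of all probe sets and in 0 of the 8.

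**Figure D1:**
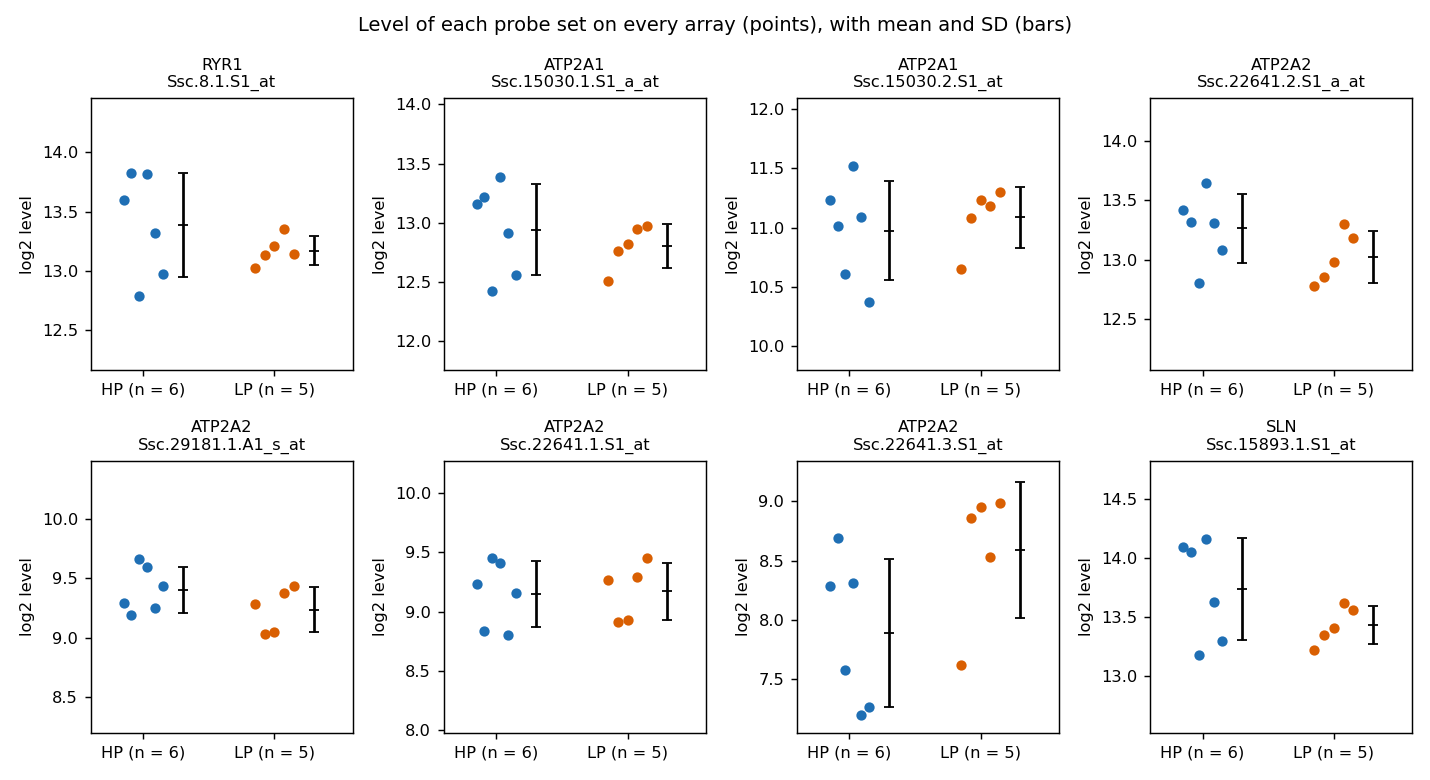
Levels (log2) of the 8 probe sets of RYR1, ATP2A1, ATP2A2 and SLN on every array, in the HP (n = 6) and LP (n = 5) pigs, as points in order of replicate number, with the mean and SD of each diet as bars; every panel spans the same length of scale. The diets overlapped in all 8 panels, and in RYR1, ATP2A1 (Ssc.15030.1.S1_a_at) and SLN the HP pigs were spread more widely (SD 0.44, 0.39 and 0.43) than the LP pigs (SD 0.12, 0.18 and 0.16).

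The members that shared the order of the HP pigs also followed the spike-ins across the arrays. With the mean of each diet taken off, Pearson's r with the spike-in level over the 11 arrays was 0.985 for RYR1 (Spearman's rho 0.945), 0.969 for the brighter ATP2A1 probe set (rho 0.982) and 0.974 for SLN (rho 0.964). In permutation tests adjusted over the 8 relations, p was 2.67e-05 for r in each of these 3 probe sets and between 8e-05 and 0.000107 for rho, where the raw p of 1e-05 for r is the smallest that 100000 permutations can give. The permutations ran across the diets, although the spike-ins spread more in HP (SD 0.40) than in LP (SD 0.13). The p-values of all 8 relations are thus approximate and may be too small. Without HP replicates 3 and 6, the arrays farthest from the median once the diet means are off, r was 0.935, 0.906 and 0.911, and without HP replicates 2 and 4, the farthest before that step, it was 0.977, 0.953 and 0.961. Within the 6 HP pigs it was 0.993, 0.989 and 0.975, and no value is given within LP, where a correlation would rest on 5 pigs.

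For the brightest ATP2A2 probe set r was 0.888 (rho 0.909, adjusted permutation p = 0.00042 and 0.00056), with 0.799 without HP replicates 3 and 6 and 0.916 within HP. The dimmer ATP2A1 probe set had r of 0.830 (rho 0.773, adjusted permutation p = 0.0033 and 0.012), which went to 0.556 without HP replicates 3 and 6, so this relation rested in part on them. Ssc.22641.3.S1_at of ATP2A2 had r of 0.634 (rho 0.755, adjusted permutation p = 0.0486 and 0.0132), which was 0.651 without HP replicates 3 and 6 but 0.404 without HP replicates 2 and 4, on which it rested in part. The other ATP2A2 probe sets, Ssc.29181.1.A1_s_at and Ssc.22641.1.S1_at, had r of -0.233 and -0.166 (rho -0.155 and -0.082, adjusted permutation p for r 0.554 and 0.621). Without HP replicates 3 and 6 these were 0.505 and 0.458, so the sign over all 11 arrays rested on those dim arrays. The spike-ins carry no pig RNA, and the part of array brightness in the levels of these genes was not tested beyond the alternatives given next.

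**Figure D2:**
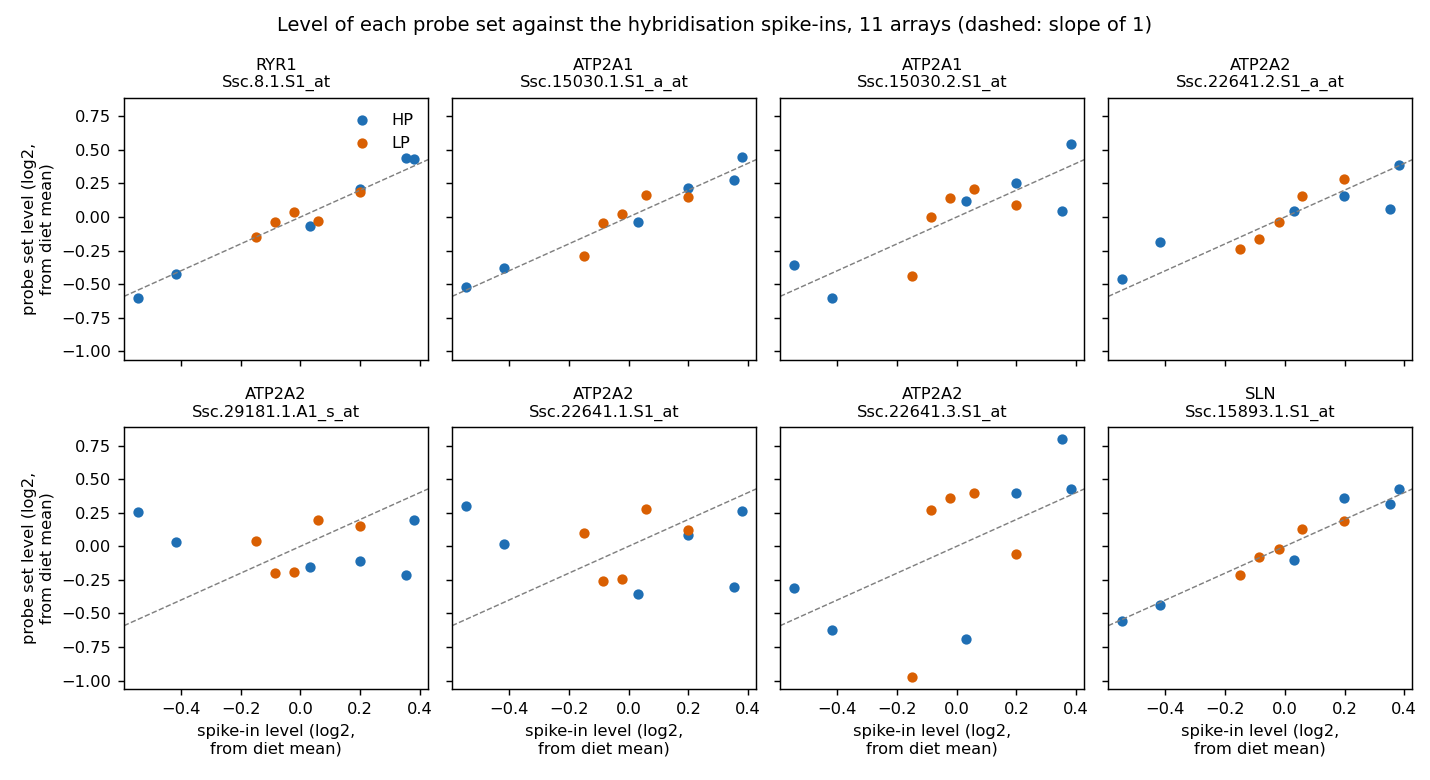
Level of each of the 8 probe sets (vertical, log2, as the deviation from its diet mean) against the level of the hybridisation spike-ins (horizontal, log2, as the deviation from the diet mean) on the 11 arrays, with a dashed line of slope 1. RYR1, ATP2A1 (Ssc.15030.1.S1_a_at) and SLN lie close to the line (r of 0.985, 0.969 and 0.974), while Ssc.29181.1.A1_s_at and Ssc.22641.1.S1_at of ATP2A2 have r of -0.233 and -0.166 and are highest on the leftmost array, HP replicate 3.

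The differences of the bright members between the diets shrank under quantile normalization and with the spike-in level as a covariate in limma. Their brightest probe sets were at percentiles 99.1 to 99.9 of mean level, where quantile normalization makes the levels of all arrays nearly alike. Smaller differences and spreads under that setting thus follow in part from the method. The covariate shifts each difference by its slope on the spike-ins within diets times their difference of -0.26 between the diets. It thus restates the relation to the spike-ins given above and is not a separate check. RYR1 went from -0.22 to 0.01 (interval -0.17 to 0.19) and 0.07 (-0.13 to 0.26), and the brighter ATP2A1 probe set went from -0.14 to 0.04 (-0.15 to 0.23) and 0.12 (-0.09 to 0.32). The sign of these 2 differences thus turned with the scaling. SLN went from -0.31 to -0.06 (interval -0.21 to 0.10) and -0.02 (-0.23 to 0.18), and the brightest ATP2A2 probe set went from -0.24 to -0.05 (-0.25 to 0.15) and -0.04 (-0.29 to 0.20). Their intervals were narrower than on the deposited levels, and all of them spanned 0. The dimmer ATP2A1 probe set was at 0.17 (interval -0.21 to 0.56) and, with the covariate, at 0.37 (interval 0.03 to 0.70), which was the other call among the 8 under that model. Of all called probe sets 44.9% were lower in LP with the covariate, against 58.0% without it.

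**Figure D3:**
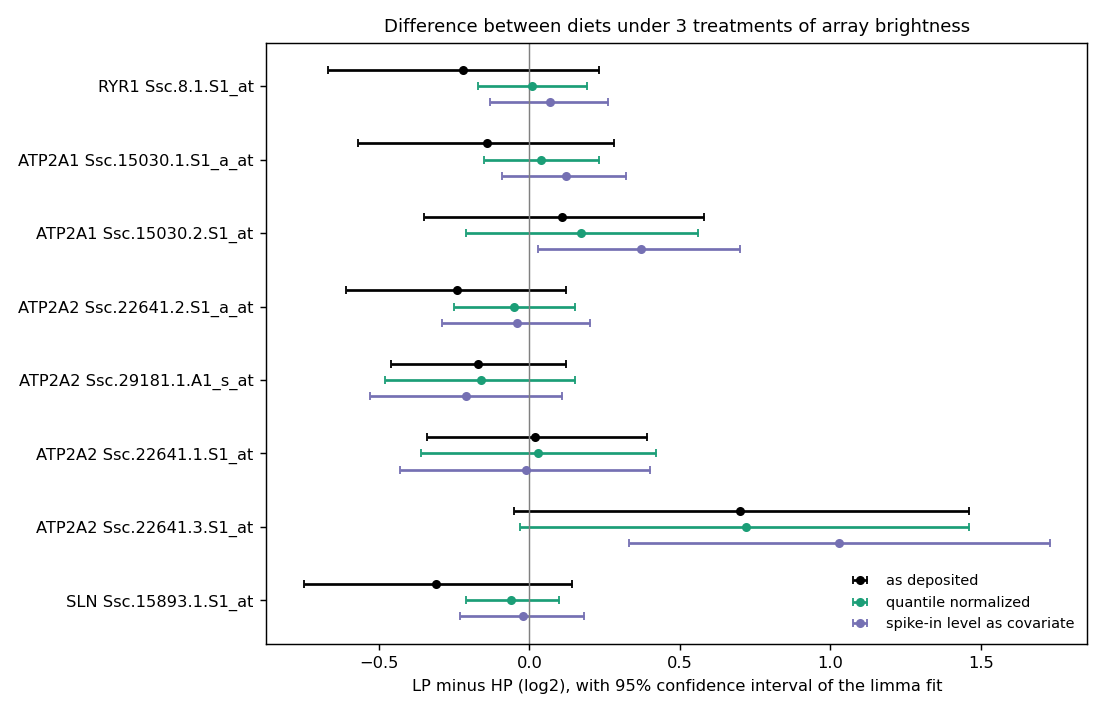
Difference of LP minus HP (horizontal, log2) for each of the 8 probe sets, as the limma estimate with its 95% confidence interval, from the deposited levels (black), after quantile normalization (green) and with the spike-in level as a covariate (purple). The black intervals all span 0, and RYR1 moves from -0.22 to 0.01 and 0.07 while Ssc.22641.3.S1_at of ATP2A2 stays above 0, at 0.70, 0.72 and 1.03.

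Ratios between members on the same array remove what multiplies all bright probe sets alike. The brightest probe set of each gene was used, which gave 6 pairs of genes, and each ratio is given as its deviation from the HP mean, without a test. The ratio of ATP2A1, the fast pump, to SLN, its inhibitor, ranged from -0.14 to 0.07 in HP and from 0.08 to 0.20 in LP on the log2 scale. It was higher in all 5 LP pigs than in any HP pig, by 0.16 ± 0.04 (SE) on average. This held for the brighter ATP2A1 probe set only. With the dimmer one, Ssc.15030.2.S1_at, the diets overlapped. HP replicate 5 (11.09, with SLN at 13.63) then had a higher ratio than LP replicate 1 (10.65, with SLN at 13.22). Among 465 genes of similar brightness, 1.38% of 107880 pairs had ratios that did not overlap between the diets. The other 5 ratios overlapped, with differences of 0.10 ± 0.08 (SE) for ATP2A1 to ATP2A2, 0.07 ± 0.06 for ATP2A1 to RYR1, 0.06 ± 0.10 for ATP2A2 to SLN, -0.03 ± 0.11 for ATP2A2 to RYR1 and -0.09 ± 0.05 for SLN to RYR1. A ratio shows unequal levels of a pair and does not say which of its genes differed. The margin between the diets for ATP2A1 to SLN was narrow, since the highest HP value was 0.07 and the lowest LP value was 0.08.

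**Figure D4:**
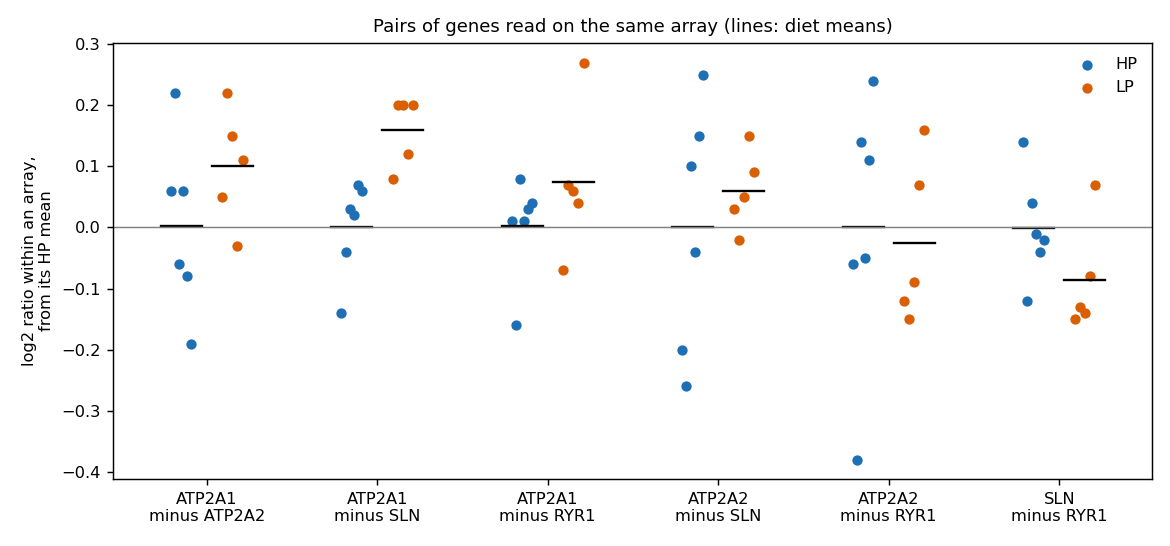
Log2 ratio of 2 genes on the same array (vertical, as the deviation from its mean in HP) for the 6 pairs of RYR1, ATP2A1, ATP2A2 and SLN, each read by its brightest probe set, with HP pigs in blue, LP pigs in orange and diet means as lines. For ATP2A1 minus SLN the LP points (0.08 to 0.20) lie above the HP points (-0.14 to 0.07), and the other 5 pairs overlap.

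The members resembled one another and many bright genes of muscle across the 11 arrays. With diet means taken off, r between the brightest probe sets was 0.98 for ATP2A1 and SLN, 0.96 for RYR1 and SLN and 0.95 for RYR1 and ATP2A1. With the spike-in level taken off as well, these were 0.65, 0.11 and -0.05. The 2 probe sets of ATP2A1 had r of 0.90, and 0.72 after the spike-ins were taken off, while Ssc.29181.1.A1_s_at and Ssc.22641.1.S1_at of ATP2A2 had r of 0.93 both ways. The brightest ATP2A2 probe set had r of only 0.04 and 0.07 with these dimmer probe sets of its own gene. These values describe arrays that share their scaling, and no test was made of them.

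The genes most like each member, of 5618 compared over the 11 arrays, were bright genes too. For RYR1 they were TMOD1, which caps actin filaments (r = 0.990), BIN1, which shapes the transverse tubules (0.989), and the ribosomal protein gene RPS12 (0.986). For ATP2A1 they were SAR1B (0.993), a GTPase of vesicle export, PFKM (0.992), the phosphofructokinase of muscle, and AMPD1 (0.991), the AMP deaminase of muscle. ATP2A2 was most like ATP5F1 (0.984), LOC100516480 (0.981) and PIGC (0.976), and SLN was most like GAPDH (0.997), RPS6 (0.994) and TPT1 (0.993). All 12 genes themselves had r between 0.898 and 0.988 with the spike-ins.

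Of the 68 further genes of the pathway that were listed, 34 had a probe set of their own symbol, and each was read by its brightest. In limma 0 were called higher in LP, 1 was called lower and 33 did not pass, against 4.73% of 6765 genes called in either direction. Their median difference was 0.02, beside -0.04 over all genes. The 1 call was ATP1B1, the beta subunit of the sodium-potassium pump that restores the ion gradients of the fibre membrane. Its levels were 12.34, 12.45, 11.62, 12.53, 12.19 and 12.04 in HP and 11.80, 11.62, 11.61, 11.93 and 11.81 in LP. HP replicates 1, 2, 4, 5 and 6 were above every LP pig, and HP replicate 3 was among the lowest. ATP1B1 was lower in LP by 0.44 (the difference was -0.44, SE 0.17, limma p = 0.0246, adjusted p = 0.953, exact permutation p = 0.026), and its r with the spike-ins was 0.91. The call was kept after quantile normalization, at -0.35, and lost with the spike-in covariate, at -0.23, and without the 3 brightest HP arrays, at -0.19. Those 3 arrays held the highest HP levels of ATP1B1, so leaving them out had to make the difference smaller. The call was also lost when HP replicate 2 (-0.39), LP replicate 2 (-0.40) or LP replicate 3 (-0.40) was left out, and a dimmer probe set of the gene was at -0.34 (exact permutation p = 0.104).

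Among genes of the triad and the structure of the sarcoplasmic reticulum, 9 of 19 were measured, 0 were called and the median difference was 0.06. FKBP1B, which binds and steadies the release channel, differed by -0.39 (SE 0.23, exact permutation p = 0.123), with 7.42 in LP replicate 1 and 8.07 to 9.05 in HP. Without LP replicate 1 it was -0.21, and the dimmer probe set of the gene was at 0.04. FKBP1A of the same list, at a mean level of 12.15, differed by 0.02 (SE 0.16, exact permutation p = 0.911). BIN1 of the transverse tubules differed by -0.20 (SE 0.19, exact permutation p = 0.303), and calreticulin (CALR), a calcium-binding protein of the reticulum, by 0.13 (SE 0.14, exact permutation p = 0.355). CACNA2D1, an accessory subunit of the voltage sensor, was at 12.10 ± 0.30 (SD, n = 6) in HP and 12.16 ± 0.11 (SD, n = 5) in LP (difference 0.06, exact permutation p = 0.647).

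Of the calcium pumps, exchangers and their regulators 6 of 10 were measured, 0 were called and the median difference was 0.11. SLC8A1, the sodium-calcium exchanger, was dim, above background in 4 of 6 HP and 5 of 5 LP pigs, with 2.46 to 3.67 in HP and 3.23 to 4.08 in LP. Its difference was 0.53 (SE 0.25, limma p = 0.0558, exact permutation p = 0.0693), and limma called it when HP replicate 1 (0.63), HP replicate 3 (0.60) or LP replicate 2 (0.66) was left out. ATP2B1, the calcium pump of the plasma membrane, ranged from 9.50 to 10.16 in HP and from 9.96 to 10.16 in LP (difference 0.23, SE 0.13, exact permutation p = 0.0649), and without HP replicate 1 it was called at 0.30. MRLN encodes myoregulin, another small inhibitor of the SERCA pumps, and it varied from 8.51 to 11.58 in LP and from 9.95 to 11.95 in HP (difference -0.62, SE 0.54, exact permutation p = 0.329). Its difference was -0.17 without LP replicate 1, -0.94 without LP replicate 4 and -0.31 with the spike-in covariate. Phospholamban (PLN), the inhibitor best known from heart, differed by -0.23 (SE 0.22, exact permutation p = 0.312). The dimmer probe set of PLN was at 0.10 (SE 0.29, exact permutation p = 0.768).

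For store-operated calcium entry and the IP3 receptors 5 of 9 were measured, 0 were called and the median difference was -0.03. ORAI3, a channel of the plasma membrane, differed by -0.14 (SE 0.11, limma p = 0.223, exact permutation p = 0.0887), with 4 of 5 LP pigs below every HP pig. STIM2, a sensor of the store, differed by 0.09 (SE 0.17, exact permutation p = 0.584), and ITPR1, an IP3 receptor, by 0.08 (SE 0.19, exact permutation p = 0.671). For calcium sensors and calcium-dependent enzymes 11 of 16 were measured, 0 were called and the median difference was 0.02. The calmodulin gene CALM3 differed by -0.31 (SE 0.18, exact permutation p = 0.0996) and was called without HP replicate 3, at -0.41, but was at -0.14 by quantile normalization, -0.10 with the spike-in covariate and -0.15 for the mean of its probe sets. RCAN1, an inhibitor of calcineurin, was at -0.19 (SE 0.19) and the calmodulin-dependent kinase CAMK2D at 0.13 (SE 0.13). For the excitability of the surface membrane 3 of 14 were measured, ATP1B1 among them, with a median of -0.11. CHRNA1, a subunit of the acetylcholine receptor, was above background in 1 HP and 2 LP pigs only (difference 0.21, SE 0.57), and the potassium channel KCNJ2 differed by -0.11 (SE 0.47).

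**Figure D5:**
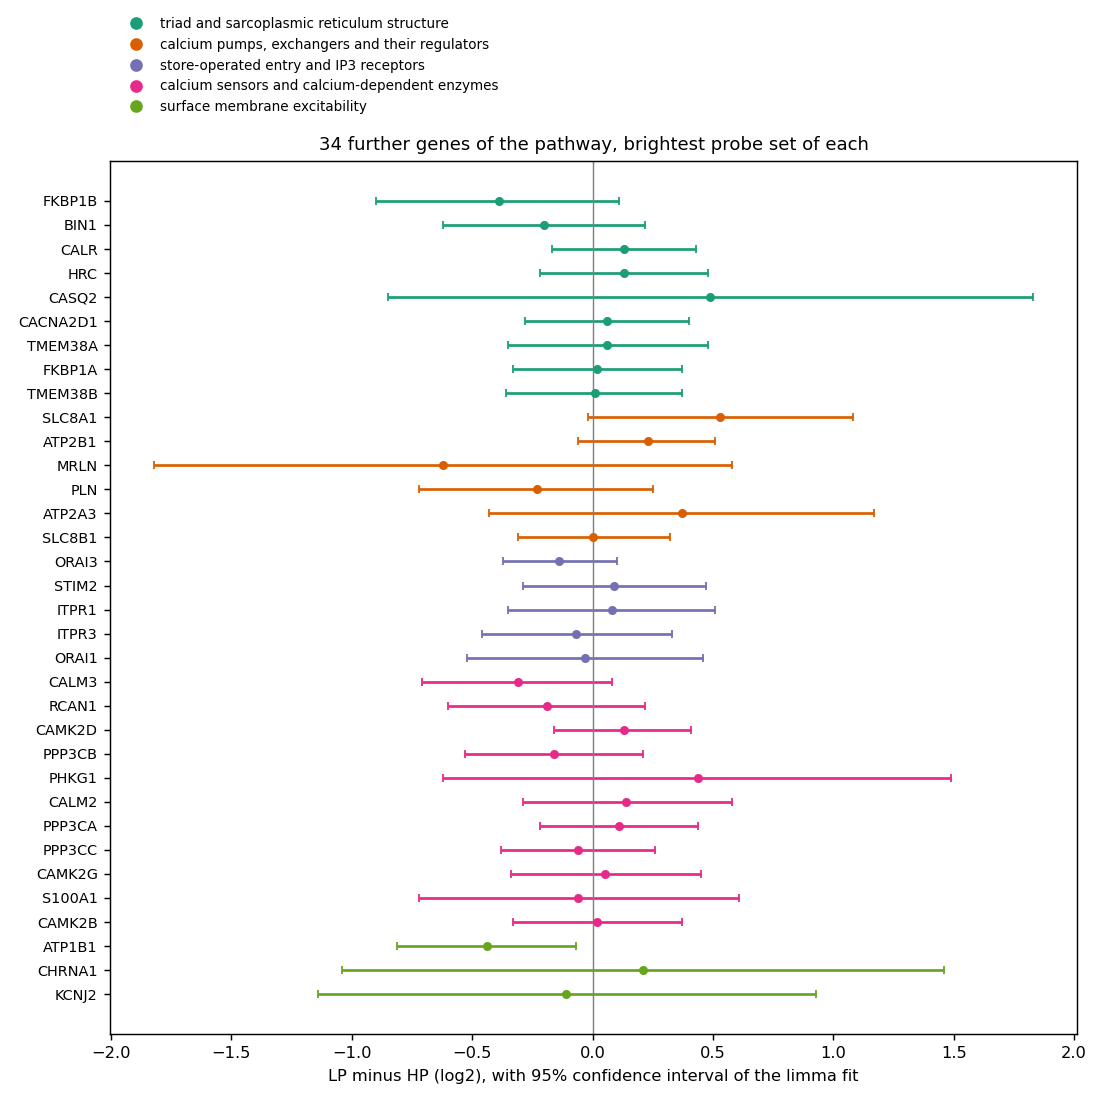
Difference of LP minus HP (horizontal, log2) for the 34 further genes of the pathway, as the limma estimate with its 95% confidence interval, from the deposited levels, coloured by group. The interval of ATP1B1 (-0.81 to -0.07) lies below 0 and the other 33 span 0.

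The tissue carried the markers of skeletal muscle. All 8 measured genes of that list were above background on all 11 arrays, with mean levels between 12.90 and 13.75. Their differences between the diets were below 0 in 8 of 8, with a median of -0.25, as in the bright members, and the median was 0.01 after quantile normalization. Of the 6 measured genes each for fast and for slow fibres 0 were called, with medians of -0.25 and -0.23, and the summed level (log2) of the fast list ranged from 15.71 to 16.68 in HP and from 15.76 to 16.23 in LP. Of the 4 measured genes of heart muscle 0 were called, with a median difference of 0.46. TNNT2 (difference 0.93, SE 0.69) and TNNI3 (0.29, SE 0.47) were above background on all 11 arrays, NPPB (0.64, SE 0.44) in 4 HP and 5 LP pigs, and NPPA on no array. On single arrays 74.9% to 85.3% of all probe sets lay above background. Over all lists 1 of the 44 markers measured was called, beside the 4.73% of all genes, and it was RGS5 of pericytes (difference -0.44, limma p = 0.00804, adjusted p = 0.892, exact permutation p = 0.00866). The others of its list were at -0.20 (DES), -0.16 (ACTA2), 0.12 (CNN1) and 0.01 (TAGLN). Of the 4 adipocyte genes measured 0 were called, with leptin (LEP) at 0.74 (SE 0.34, limma p = 0.0533, exact permutation p = 0.0887), ADIPOQ at 0.22, FABP4 at -0.11 and LIPE at -0.16. Their summed level, carried mostly by FABP4, ranged from 11.70 to 12.81 in HP and from 11.95 to 12.45 in LP. Since whole muscle was sampled, fewer fibres of a type and less RNA of a gene per fibre cannot be told apart.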

How the data were processed

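Each deposited value is a log2 level of 1 probe set in 1 of 6 HP or 5 LP pigs, which were grouped by the diet in the labels. The software that the methods name is R 2.6, Bioconductor 2.1 and the package puma, and how background and scaling were treated is not given in the sources used here. Since all arrays shared 1 median, no further scaling was applied. The number of arrays limits the precision. Weight blocks, pens and slaughter dates were not given per pig, so no block stands in the model.

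The arrays held 24123 probe sets, and after 124 controls were set aside 23999 were fitted with limma 3.58.1 in R 4.3.3 (lmFit and eBayes, two-sided), with a call where the unadjusted p was at most 0.05 (the study applied the same number to P-like values of puma, another statistic). Single probe sets were also tested by exact permutation over 462 splits (two-sided, smallest p 0.00216). Symbols came from the platform annotation, where 10069 probe sets had 1 symbol, 198 several and 13732 none. Background was the highest of 23 negative controls on an array (Tag and trp probe sets, of which the Tag sets were chosen after the poly-A controls were found to be spiked in). Of the pathway genes, those called and the 3 with the smallest p in each list are named, and CACNA2D1, FKBP1A and PLN were added after their values were seen. The members and the lists were chosen with earlier results of these data known. The fit was tested on data simulated with independent noise in each probe set, so brightness shared over an array was not part of that test. The alternatives were quantile normalization, median centring, raising of low values, leaving out dim probe sets, array weights, a trended robust prior, the spike-in level as a covariate, the replicate number as a block, the mean of the probe sets of a gene and leaving out each pig.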

Additional observations from a re-analysis of the deposited data

How the results depend on the processing

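The count of called probe sets among the 8 of RYR1, ATP2A1, ATP2A2 and SLN was 0 on the deposited levels, 1 with array weights, with dim probe sets left out, with a trended robust prior and without HP replicates 1, 2 and 4 (an alternative chosen after seeing the data), 2 with the spike-in covariate, and 0 to 2 when each pig was left out. For the pathway it was 1 (ATP1B1, lower), then 2 with low values raised and 0 to 3 when each pig was left out. The 1 call was another gene, higher in LP, with the covariate (CALM2, 0.36), without HP replicates 1, 2 and 4 (CAMK2D, 0.31) and without LP replicate 2 (SLC8A1, 0.66). Over all probe sets it was 1227, then 710 with dim ones left out (fewer were tested), 1884 without HP replicates 1, 2 and 4, and 1066 to 1521 when each pig was left out. Signs turned for RYR1 (0.01 by quantile normalization, 0.07 with the covariate, 0.14 without the 3 HP arrays), the brighter ATP2A1 probe set (0.04, 0.12 and 0.17), SLN (0.06 without the 3 arrays), the brightest ATP2A2 probe set (0.08 for the mean of the gene), BIN1 (0.06 and 0.14) and RCAN1 (0.04 without the 3 arrays). They also turned for the dimmer ATP2A1 probe set (-0.01 with the block, -0.01 to 0.22 over pigs left out). Ssc.22641.1.S1_at of ATP2A2 turned as well (-0.01 with the spike-in covariate, -0.05 to 0.09 over pigs left out). Over pigs left out, signs turned for STIM2 (-0.02 to 0.19), ITPR1 (-0.01 to 0.17), CHRNA1 (-0.06 to 0.67) and KCNJ2 (-0.39 to 0.14). HP replicates 1, 2 and 4 held the highest HP levels of RYR1, the brighter ATP2A1 probe set, SLN, BIN1, RCAN1 and CAMK2D. Leaving them out thus had to raise the differences of these genes. The cause of the other turns was not tested. Replicate numbers did not pair the pigs (r of same-numbered pigs -0.0685 to 0.0848, with 1 of 5 LP pigs most like its own number), and with the replicate number as a block the counts were 0, 1 and 1232.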

Other observations

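Among the 34 pathway genes the widest spread within diets was in CASQ2 (pooled SD 1.09), CHRNA1 (1.02), MRLN (0.98), PHKG1 (0.86) and KCNJ2 (0.84), against a median of 0.37 over all probe sets, and of these MRLN and PHKG1 were the ones at 8 or above on all 11 arrays. CASQ2 and PHKG1 are named here for this spread, outside the rule for named genes, and were chosen with their values known. MRLN, whose product myoregulin restrains the SERCA pumps, had levels that spanned 3.45 on the log2 scale (10.9-fold). The lowest, 8.51, was LP replicate 1, and the highest, 11.95 and 11.81, were HP replicates 4 and 1. PHKG1, the catalytic subunit of the calcium-activated phosphorylase kinase of muscle, spanned 2.62, from 8.01 in HP replicate 1 to 10.63 in LP replicate 2. Their means did not pass the threshold (exact permutation p = 0.329 and 0.411). No cause of these spreads was tested.

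The poly-A spike-ins, which are added before labelling, had diet means that lay in the other order than those of the hybridisation spike-ins. Their mean was 8.59 ± 0.24 (SD, n = 6) in HP and 8.68 ± 0.23 (SD, n = 5) in LP, a difference of 0.09 (exact permutation p = 0.539).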
